A study of Mus musculus with 10 samples.

Results

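The 2 plates of Tie1/-2-deleted lymphatic endothelial cells (LECs) held wells in which *Tie1* was lost and wells that retained it, and these were compared within each plate. Each well holds 1 cell. A well was used if it had at least 50000 counts on genes, spike-ins left out, and at least 1000 detected genes. It was called lost if *Tie1* was under 250 CPM (the gene's counts scaled to a fixed total of gene counts per well) and retaining if *Tie1* was at 1000 CPM or more. This gave 561 of the 3048 wells on the 8 plates of the series, 389 lost (186 on plate 1 and 203 on plate 2) and 172 retaining (99 and 73). Of the other wells of these plates, which held 762 in all, 140 lay between the limits and 61 were too shallow, and they were left out. Because the wells were selected on *Tie1*, its level is no result and it is left out of every comparison. On plate 1 the wells nearest to the limits had 249.4 CPM (lost), 270.7 and 988.7 CPM (left out) and 1009 CPM (retaining), and on plate 2 they had 246.2, 282.4, 991.5 and 1013 CPM.

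The deleted mice carried Prox1CreERT2 with Tie1fl/fl and Tie2fl/fl and were Cre+. The Cre-negative controls of this strain, plates 3 and 4, were Tie1fl/fl,Tie2fl/fl and Cre-. Pups of both genotypes were male and received 62.5 µg of 4-hydroxytamoxifen by intragastric injection from P1 to P5, and their LECs were taken in the fourth postnatal week. Another genotype, Prox1CreERT2 with Tie1fl/fl alone (Cre+, 1 plate of each sex, same treatment), served for comparison. Its Cre- controls, Tie1fl/fl (1 plate of each sex, same treatment), entered the fits too. They informed the estimate of spread only where retaining wells were compared between genotypes. In the fit of lost against retaining wells they added no residual degrees of freedom, since 1 of their plates had too few lost wells to sum. The same held for plates 3 and 4, since plate 4 had too few lost wells. Live LECs were sorted from ear skin as CD31+ PDPN+ CD45- CD11b- Ter119- cells and read by Smart-seq. How many mice a plate was drawn from is not given in the sources used here, so p-values measure the spread between plates. For lost against retaining wells this is the spread of the class difference between the Cre-positive plates of a genotype. The Cre acts where the *Prox1* promoter is active, and the paper used it to delete the receptors in LECs. Deletion in other cells was not measured on these plates. The counts cover whole genes, and which exons were floxed is not given in the sources used here.

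Tie1 and Tie2 (encoded by *Tek*) are receptor tyrosine kinases of endothelial cells. Angiopoietins bind Tie2, whereas Tie1 has no established angiopoietin ligand of its own and acts in a complex with Tie2, and signals pass through PI3K and Akt, which keep the transcription factor FoxO1 out of the nucleus. *Angpt2*, the gene of the ligand angiopoietin-2, is a known FoxO1 target in endothelium. Inducible Cre recombines each floxed allele separately, so that a cell can keep one gene and lose the other.

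Lost and retaining wells were of like depth. The median number of gene counts per well was 192700 in lost and 195300 in retaining wells of plate 1, and 286100 and 255700 on plate 2, with 3734, 3747, 5930 and 5898 detected genes in the same order. Mitochondrial genes took 1.06% and 0.983% of the counts on plate 1 and 1.39% and 1.35% on plate 2. Plates 2 and 4 were deposited in another table layout than plates 1 and 3 and hold low counts of many genes in most wells, so shares of wells with any count of a gene are higher there. Both layouts occur once among the deleted and once among the control plates, but low counts were not confined to 1 layout. In retaining wells of control plate 3, *Mmrn2* had a median of 14.4 CPM and a lower quartile of 6.475 CPM. Both were 0 in the retaining wells of deleted plates 1 and 2. Shares of wells at low limits are therefore not fully comparable between deleted and control plates. The 6 pan-LEC markers, *Prox1*, *Flt4*, *Pdpn*, *Mmrn1*, *Ccl21a* and *Pecam1*, summed to 8941 and 7775 CPM in lost and to 9302 and 8222 CPM in retaining wells, against 8357 and 8325 CPM in the retaining wells of the controls. The summed markers of fibroblasts (5 genes) were at 21.7 to 50.1 CPM in the lost and retaining sums of the deleted plates, but at 402 CPM on control plate 3 and 48.6 CPM on control plate 4, and those of mural cells (5 genes) at 5.66 to 11.7, 56.7 and 8.94 CPM. On control plate 3, 199 of 300 retaining wells failed a marker check (3 or more markers of another cell type at 10 CPM or more, or fewer than 3 pan-LEC markers detected), against 30 of 299 on plate 4, none of the lost or retaining wells of deleted plate 1, and 18 lost and 1 retaining wells of deleted plate 2. The number of calls against the controls, and the calls of some genes, are therefore also given without plate 3. The summed markers of keratinocytes (5 genes) were higher on both control plates. They were at 125 and 128 CPM in the retaining wells of plates 3 and 4, and at 8.46 to 19.7 CPM in the sums of the deleted plates. The marker check covered fibroblasts, keratinocytes, immune cells and mural cells, but not blood endothelium. The summed markers of blood endothelium (6 genes) were at 320.5 and 291.8 CPM in the retaining wells of plates 3 and 4. On deleted plates 1 and 2 they were at 165 and 142.8 CPM in retaining and 189.8 and 236 CPM in lost wells. Leaving out plate 3 does not remove the difference in keratinocyte or in blood endothelial markers. No well held the same counts as another well.

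**Figure D1:**
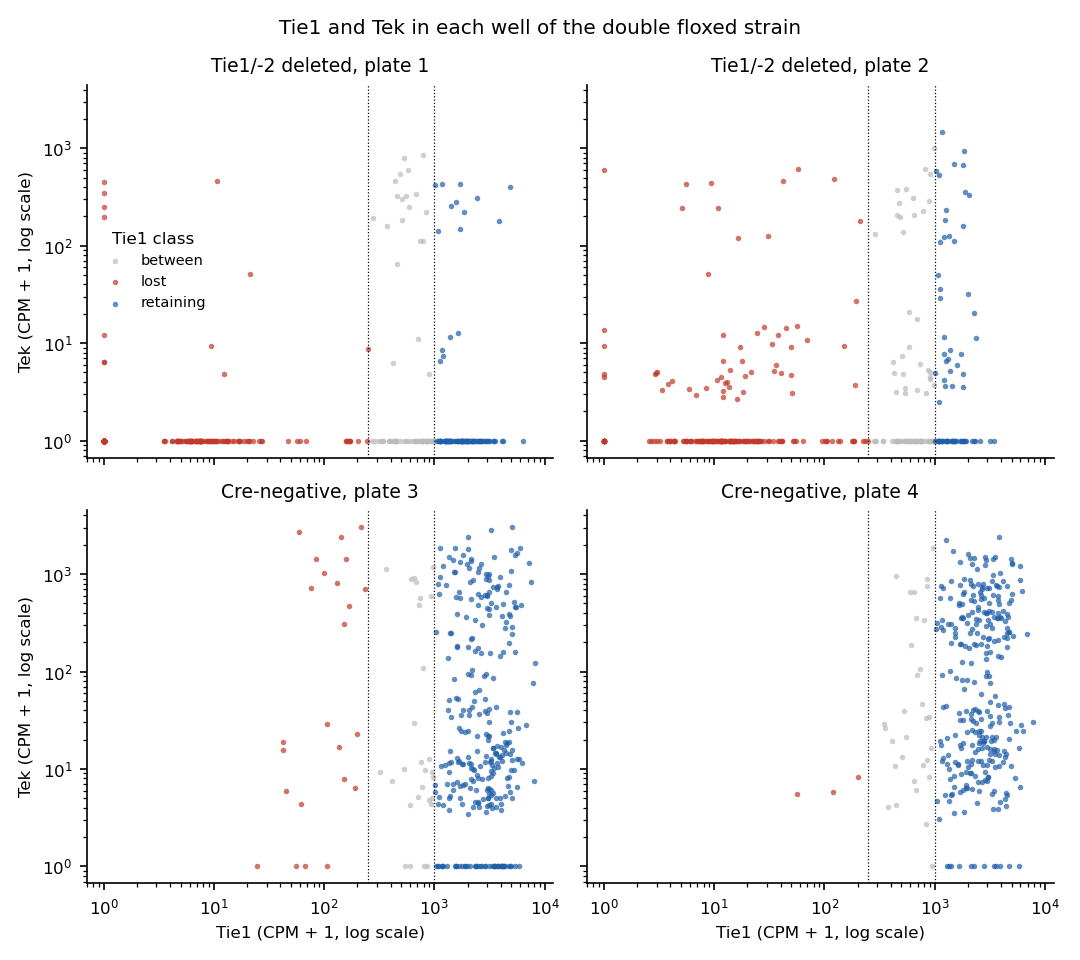
*Tie1* (x axis) and *Tek* (y axis) in each well of the 4 plates of the strain, both as CPM + 1 on log scales. Points are wells colored by *Tie1* class, and dotted lines mark the limits of 250 and 1000 CPM. Most retaining wells of the deleted plates lie on the baseline of *Tek*, and the retaining wells of the controls mostly lie above it.

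*Tek*, the second floxed gene, was detected less often in lost than in retaining wells on both plates, and in both classes less often than in the controls. At least 1 count of *Tek* was found in 12 of 186 lost wells (6.45%, exact binomial 95% interval 3.38% to 11.0%) and 16 of 99 retaining wells (16.2%, 9.53% to 24.9%) of plate 1. On plate 2 it was found in 57 of 203 lost wells (28.1%, 22.0% to 34.8%) and 36 of 73 retaining wells (49.3%, 37.4% to 61.3%). The intervals cover counting error within a plate only. Of the 57 lost wells, 45 had just 1 to 3 counts.

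At a limit of 50 CPM the shares were lower and the plates more alike. *Tek* reached 50 CPM in 6 lost wells (3.23%) and 11 retaining wells (11.1%) of plate 1, and in 12 lost wells (5.91%) and 15 retaining wells (20.5%) of plate 2. Thus 88 of 99 and 58 of 73 wells that retained *Tie1* had *Tek* under 50 CPM. In the controls, 109 of 300 (36.3%) and 150 of 299 (50.2%) retaining wells reached 50 CPM, and 85.0% and 96.0% had at least 1 count. Of these control wells with *Tek* counts, 116 and 76 had just 1 to 3. After thinning each well to 50000 counts, *Tek* was detected in 4.30% of lost and 12.1% of retaining wells of plate 1 and in 10.8% and 35.6% of plate 2, so the order of the classes was the same on both plates.

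**Figure D2:**
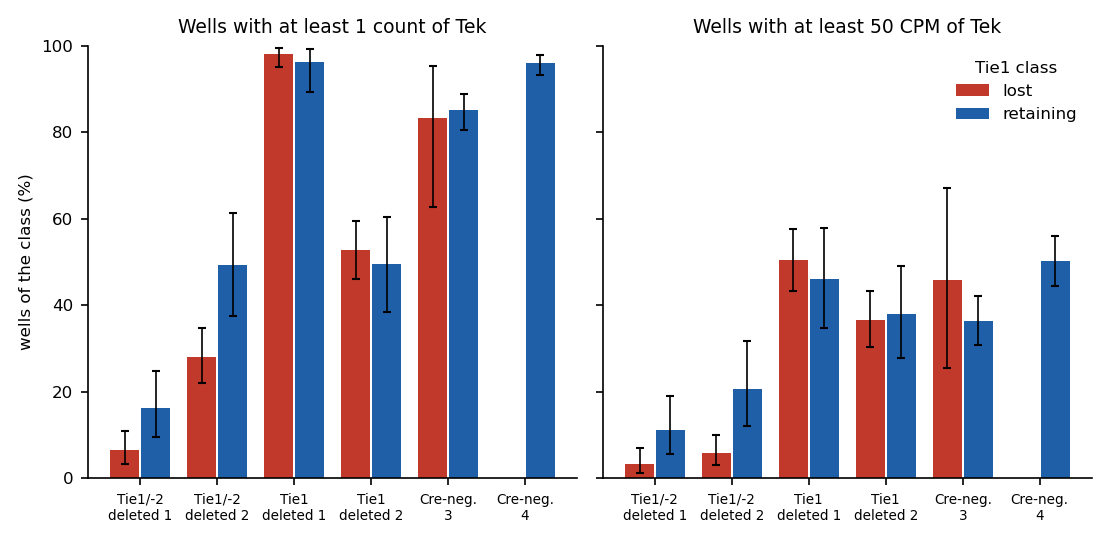
Share of wells (y axis, %) with at least 1 count (left) and at least 50 CPM (right) of *Tek*, by plate and *Tie1* class. Bars show the share and whiskers its exact binomial 95% interval, and the 3 lost wells of Cre-negative plate 4 are not drawn. In the Tie1/-2-deleted plates the retaining bars stand above the lost bars, from 3.23% against 11.1% to 28.1% against 49.3%.

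Summed over wells, *Tek* (chromosome 4, 94739086 to 94874976 of GRCm38) was at 9.17 and 20.1 CPM in lost wells and 42.0 and 141 CPM in retaining wells of plates 1 and 2, and at 272 and 286 CPM in the retaining wells of the controls. These and the following summed levels are CPM scaled with TMM factors. The 3 groups did not overlap. The level in lost wells was lower than in retaining wells by a log2 fold change of -2.51 ± 0.21 (SE, n = 2 plates, 95% interval -3.02 to -2.0). This was the smallest p of 21695 genes in edgeR's quasi-likelihood test, but it was not called (Benjamini-Hochberg adjusted p = 0.485, the test that follows throughout). Of 17 other analyses 2 called *Tek*, DESeq2 (adjusted p = 1.96e-23) and the sums of wells thinned to 50000 counts (adjusted p = 0.0154), and the adjusted p reached up to 0.924 in the others. Single wells weighed on these sums: the highest well held 37.0% and 17.0% of the *Tek* counts of the lost sums and 27.4% and 28.9% of those of the retaining sums.

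In the plates floxed for *Tie1* alone, *Tek* was alike in both classes. It was at 220.3 and 234 CPM in lost wells and 207 and 257 CPM in retaining wells, and it reached 50 CPM in 50.5% and 36.6% of lost and 46.2% and 37.9% of retaining wells. The log2 fold change between the classes was -0.02 there (95% interval -0.49 to 0.45), and the difference between the strains was -2.49 ± 0.28 (95% interval -3.17 to -1.80), which edgeR did not call (adjusted p = 1.00).

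Across all genes, lost and retaining wells differed in few or none, depending on the tool. edgeR tested 21695 genes and called 0 (0% of those tested) at an adjusted p under 0.05, where 982 (4.53%) had an unadjusted p under 0.05. limma on log2 of the mean CPM per well called 0 as well, with 874 genes at an unadjusted p under 0.05. DESeq2 called 175 of the 14965 genes to which it gave an adjusted p (1.17%), 105 higher and 70 lower in lost wells. The power of the fit was low in a single simulated data set. Data were simulated on 20515 of the genes, with 67, 67 and 66 of them changed by 1, 2 and 3 on the log2 scale. There edgeR recovered 8.96%, 28.4% and 47.0% of the changed genes and called 12 unchanged genes. The share of unchanged genes among the calls was thus above the threshold of 0.05 in that simulation. The changed genes were drawn at random over all levels, so these shares do not give the power for the genes named here. Among genes with higher levels, few differed by a large amount in both plates, and the number depends on the floor. At a mean of 10 CPM or more over the 4 sums, 75 of 9598 genes were at least 2-fold higher and 61 at least 2-fold lower in lost wells on both plates. Among 4726 genes averaging 50 CPM or more over the 4 sums, 3 were at least 2-fold higher and 5 at least 2-fold lower in lost wells on both plates, and among 2433 genes with at least 100 CPM there were 0 and 0. The SD of the log2 difference between lost and retaining wells over the 598 genes with at least 300 CPM was 0.236 on plate 1 and 0.231 on plate 2. Over those genes 61.4% had the same direction on both plates (Pearson's r = 0.341 across genes, which are not independent replicates), and over the 4726 genes 53.7% did (r = 0.0827).

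Of the 10 genes with the smallest p, *Tek* among them, those described here were not called by edgeR, and DESeq2 called each of them. Among those lower in lost wells, *Fbln2*, which encodes the matrix protein fibulin-2, was at 371 and 229.8 CPM in lost and 839 and 449.8 CPM in retaining wells (log2 fold change -1.07 ± 0.11, edgeR adjusted p = 0.996). It reached 10 CPM in 43.5% and 60.1% of lost and 65.7% and 72.6% of retaining wells, and it was at 965 and 1031 CPM in the controls, so the retaining wells lay between lost and control wells. *Eln*, the gene of elastin, was at 33.9 and 37.6 CPM in lost and 69.2 and 118 CPM in retaining wells (log2 fold change -1.34 ± 0.17, edgeR adjusted p = 0.996). Both classes were far below the 626 and 715 CPM of the controls. *Adamts1*, which encodes a secreted matrix protease, was at 0.855 and 1.05 CPM in lost and 13.6 and 6.32 CPM in retaining wells, and 1 well held 76.2% and 63.4% of the retaining counts.

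The genes with higher levels in lost wells were read in few wells. *Tacc3*, whose protein acts at the mitotic spindle, was at 32.0 and 24.6 CPM in lost and 3.39 and 1.69 CPM in retaining wells, and it reached 10 CPM in 13 and 17 lost and 3 and 3 retaining wells. *Tgfa*, the gene of an EGF receptor ligand, had 175 and 523 counts in lost and 2 and 5 counts in retaining wells, and it reached 10 CPM in 3 and 6 lost wells. *Gpr160* had 454 and 467 counts in lost and 0 and 3 in retaining wells, *Zbtb16* 400 and 229 against 0 and 1, and *Steap4* 303 and 606 against 1 and 1. No fold is given for these, since 3 counts, the upper limit that a sum of 0 allows, amount to 0.157 CPM in the retaining sum of plate 1 and 0.134 CPM in that of plate 2. *Gpr160* reached 10 CPM in 5 and 8, *Zbtb16* in 3 and 6 and *Steap4* in 4 and 8 lost wells, so few wells made up these sums.

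By size, the 8 genes that differed at least 2-fold on both plates at a mean of 50 CPM were *Tek*, *Eln*, *Cldn11*, *Gjd3*, *Mcam*, *Esm1*, *Abtb1* and *Lrrc14*, named after their values were seen. edgeR called none of them and DESeq2 all but *Abtb1*, and *Tek* and *Eln* are also among the 10 above. *Esm1*, which encodes the secreted proteoglycan endocan, stood out in its control level. It was at 154 and 87.9 CPM in lost and 10.1 and 7.03 CPM in retaining wells, and at 0.0269 and 0.358 CPM in the retaining wells of the controls (log2 fold change of lost against retaining 3.79 ± 1.18, edgeR adjusted p = 0.996). It reached 10 CPM in 33 of 186 and 42 of 203 lost wells, in 5 of 99 and 6 of 73 retaining wells and in 0 of 300 and 2 of 299 control wells. *Gjd3* and *Cldn11*, a connexin and a claudin used as valve LEC markers, were at 46.4 and 8.65 CPM and at 47.5 and 46.8 CPM in lost wells. In retaining wells they were at 97.5 and 66.1 CPM and at 137 and 129 CPM. The highest well held 42.1% of the *Gjd3* and 41.1% of the *Cldn11* counts of retaining wells on plate 2, and *Cldn11* reached 10 CPM in like shares of both classes (8.06% of lost and 9.09% of retaining wells on plate 1, 13.3% and 16.4% on plate 2).

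*Angpt2* was high in both classes. Summed, *Angpt2* (chromosome 8, 18690263 to 18741562 of GRCm38) was at 3538 and 2771 CPM in lost and 2971 and 2486 CPM in retaining wells of plates 1 and 2 (log2 fold change 0.20 ± 0.08, 95% interval -0.00 to 0.41, edgeR adjusted p = 0.996). In the retaining wells of the controls it was at 275 and 510.1 CPM. The medians over wells were 3281 and 2818 CPM in lost, 2523 and 2572 CPM in retaining and 10.5 and 103 CPM in control wells, so the typical retaining well differed from the typical control well by more than the sums show. *Angpt2* reached 1000 CPM in 169 of 186 and 183 of 203 lost wells and in 76 of 99 and 66 of 73 retaining wells, against 30 of 300 and 52 of 299 retaining wells of the controls. In retaining wells, the level was higher in the deleted than in the control plates by a log2 fold change of 2.80 ± 0.30 (95% interval 2.13 to 3.48, edgeR adjusted p = 0.00894), and it was called in 14 of 15 other analyses. In the plates floxed for *Tie1* alone it was at 952 and 1168 CPM in lost and 652 and 696 CPM in retaining wells (log2 fold change 0.65, edgeR adjusted p = 0.861). The class difference was smaller in the double floxed plates by -0.44 ± 0.12 on the log2 scale (95% interval -0.73 to -0.15), which was not called (edgeR adjusted p = 1.00).

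**Figure D3:**
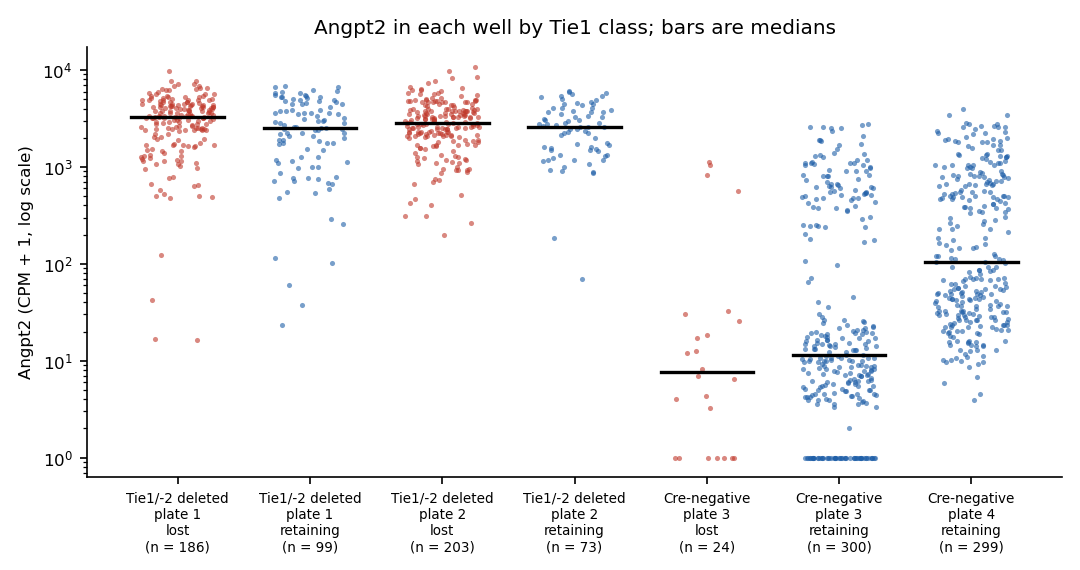
*Angpt2* in each well (y axis, CPM + 1, log scale) by plate and *Tie1* class, with black bars at the medians. Lost and retaining wells of the deleted plates have medians from 2523 to 3281 CPM, and retaining wells of Cre-negative plates 3 and 4 have medians of 10.5 and 103 CPM.

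Retaining wells in which *Tek* was present too were also high in *Angpt2*. This split was added after the data were seen, and its levels are CPM without TMM factors. The 11 and 15 retaining wells with *Tek* at 50 CPM or more had 2257 and 2328 CPM of *Angpt2* when summed, and the 88 and 58 with less *Tek* had 2781 and 2617 CPM. *Angpt2* reached 1000 CPM in 9 of the 11 and 14 of the 15. In control wells retaining *Tie1* with *Tek* at 50 CPM or more it was at 240.2 and 384 CPM. *Fn1*, the gene of fibronectin, was at 2856 and 2563 CPM in the same 11 and 15 wells and at 1024 and 909.6 CPM in the control wells. *Lyve1*, a hyaluronan receptor of lymphatic capillaries, was at 3101 and 3098 CPM against 1314 and 1590 CPM. *Mmrn2*, a marker of collecting vessels, was at 0.778 and 54.5 CPM against 381 and 449 CPM. The deletion of either gene in a well was not measured other than by these counts.

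The other members of the pathway differed little or were hardly read. *Ptprb*, the phosphatase that acts on Tie2, was at 255 and 180 CPM in lost and 215 and 256 CPM in retaining wells (log2 fold change -0.13, 95% interval -0.77 to 0.51). *Angpt1* and *Angpt4*, genes of the other angiopoietins, had 0 counts in the 4 sums, which at 3 counts a sum allows up to 0.0884, 0.0483, 0.157 and 0.134 CPM in the lost and the retaining wells of plates 1 and 2, and *Svep1* was at 0.0295 to 0.113 CPM. Of the 23 genes of the PI3K, Akt and FoxO list 0 were called, and 0 had an unadjusted p under 0.05 (median log2 fold change -0.04, against 0.04 over all genes tested). *Foxo1* was at 145 and 123 CPM in lost and 151 and 124 CPM in retaining wells, and at 113 and 138 CPM in the controls, so the classes differed by a log2 fold change of -0.04 (95% interval -0.57 to 0.49).

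Among genes of lymphatic growth and identity, edgeR called none between lost and retaining wells, and DESeq2 called *Nrp2* and *Foxc2*. *Flt4*, which encodes the VEGF-C receptor VEGFR3, was at 1697 and 1267 CPM in lost and 1799 and 1343 CPM in retaining wells (log2 fold change -0.08, 95% interval -0.24 to 0.08). *Prox1*, the transcription factor of LEC identity, was at 904 and 858 CPM against 991 and 825 CPM (-0.04, -0.34 to 0.26), and *Lyve1* at 4035 and 3626 CPM against 3612 and 3494 CPM (0.11, -0.06 to 0.27). The intervals of these 3 genes lie between -0.34 and 0.27, so larger class differences are outside them. *Kdr*, the gene of VEGFR2, was at 397 and 368 CPM in lost and 516 and 372 CPM in retaining wells (log2 fold change -0.20, 95% interval -0.59 to 0.20).

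*Nrp2*, a coreceptor of VEGFR3, was at 107 and 96.2 CPM in lost and 159.7 and 229.9 CPM in retaining wells, and at 402 and 399 CPM in the controls. The log2 fold change between the classes was -0.92 ± 0.19 (edgeR adjusted p = 0.996), which DESeq2 called (adjusted p = 0.00368) and no other of the 17 analyses did (up to 1.00). The share of wells with at least 10 CPM of *Nrp2* differed little, 32.8% and 42.9% of lost against 34.3% and 50.7% of retaining wells. *Foxc2*, a transcription factor of lymphatic valves, was at 138 and 23.5 CPM in lost and 204 and 63.7 CPM in retaining wells (-1.0 ± 0.32, edgeR adjusted p = 0.996, DESeq2 adjusted p = 0.0246), and 1 well held 47.4% of the retaining counts of plate 2. *Gata2*, another valve transcription factor, was at 146 and 110.5 CPM against 243 and 90.0 CPM, lower in lost wells on plate 1 and higher on plate 2, and *Itga9*, an integrin of valves, at 120.3 and 98.5 CPM against 115 and 85.0 CPM.

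**Figure D4:**
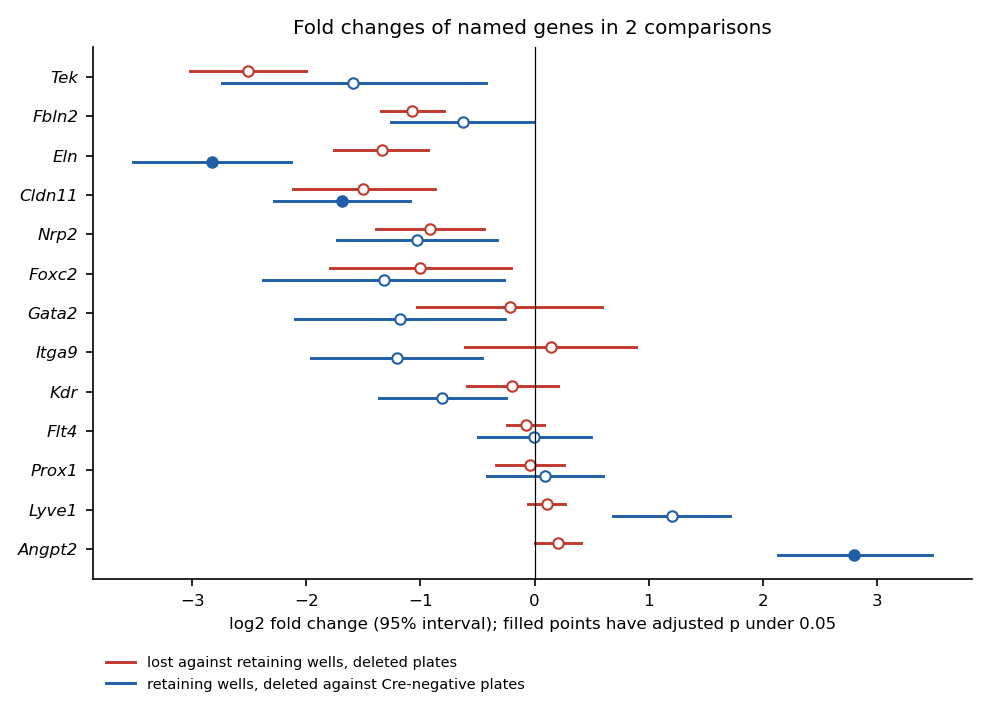
Log2 fold changes (x axis) of 13 named genes with 95% intervals, for lost against retaining wells of the deleted plates (red) and for retaining wells of the deleted against the Cre-negative plates (blue). Filled points have an edgeR adjusted p under 0.05, which are *Eln*, *Cldn11* and *Angpt2* in the second comparison, and no red point is filled. Both comparisons use the retaining wells of the deleted plates.

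By gene list, edgeR called 0 members of the 30 lists examined between lost and retaining wells. Of their members DESeq2 called *Tek*, *Nrp2*, *Foxc2*, *Tgm2*, *Gjd3*, *Cldn11*, *Eln*, *Dll1*, *Col6a1*, *Col8a1*, *Ednrb*, *Ifit1*, *Rsad2*, *Fabp4* and *Gpihbp1*. Over all 14965 genes to which it gave an adjusted p, it called 1.17%. Some genes are in more than 1 list, so no share of members is given. The 5 valve LEC markers had a median log2 fold change of -0.50 and ranged from -2.0 to -0.37, so all 5 had lower levels in lost wells. The 7 collector LEC markers had a median of -0.27 and ranged from -0.69 to 0.52, so they went both ways. Of these, *Tgm2*, a transglutaminase gene, was at 494 and 314 CPM in lost and 777 and 519.8 CPM in retaining wells. The 7 capillary LEC markers had a median of 0.20 (-0.56 to 0.41), and the 6 pan-LEC markers of -0.07 (-0.43 to 0.07). Against 0.04 over all genes, the 6 genes of proliferating cells had a median of 0.96 and ranged from 0.42 to 1.86, but their sums were at 77.9 and 63.7 CPM in lost and 83.2 and 27.9 CPM in retaining wells, higher in lost wells on plate 2 and lower on plate 1. Of the 14 collagens 5 had an unadjusted p under 0.05, each lower in lost wells, and of these *Col4a1* and *Col4a2*, basement membrane collagens, were at 1194 and 1029 CPM and at 1107 and 813 CPM in lost wells. In retaining wells they were at 1342 and 1233 CPM and at 1611 and 984 CPM. Of the 16 genes of basement membrane and matrix 5 had an unadjusted p under 0.05, *Lama5*, *Lamb1* and *Nid1* higher and *Eln* and *Fbln5* lower in lost wells. The share of all genes with an unadjusted p under 0.05 was 4.53%, and the lists were chosen with earlier results of these data known. Immediate early genes (11) summed to 2801 and 1406 CPM in lost and 2538 and 1644 CPM in retaining wells, higher on plate 1 than on plate 2 in both classes.

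The class differences were also set against those of the other plates. Differences between the double floxed and the *Tie1* floxed plates numbered 0 by edgeR (923 genes, 4.25%, at an unadjusted p under 0.05), 0 by limma and 101 by DESeq2. In the controls only plate 3 had enough lost wells to sum, 24, of which 18 failed the marker check. The class difference of the controls thus rests on that plate alone, and its spread between control plates was not measured. No count of genes differing from it is given here. The counts listed with the dependence on processing are not results replicated over control plates. *Tek* was higher in these 24 wells, with 646 CPM, than in the 300 retaining wells of the plate, with 272 CPM. Without plate 3 this comparison could not be fitted.

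Retaining wells of the deleted plates differed from retaining wells of the controls. Of 18057 genes tested edgeR called 78, of which 15 rose (0.0831%) and 63 fell (0.349%) in the deleted plates. With the 4 plates of this strain alone the calls numbered 32. Without control plate 3 they numbered 21 (1 higher), and without plate 4 they numbered 28 (1 higher). The genes named here are those of the 48 called genes with at least 100 CPM in the higher genotype, 14 that rose and 34 that fell, chosen after their values were seen. Since lost and control wells are both compared with the same retaining wells, the levels of all 3 are given side by side.

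Among the genes that rose were some genes of secreted and matrix proteins, but matrix genes did not rise as a group. Of the 16 genes of basement membrane and matrix, 1 rose (*Fn1*) and 3 fell (*Lama5*, *Agrn* and *Eln*), against 0.0831% and 0.349% of all genes. Their median log2 fold change was -0.61. Of the 14 collagens 0 were called, with a median of -0.53, against -0.04 over all genes. *Fn1* was at 1053 and 1067 CPM in control, 3343 and 3147 CPM in retaining and 3914 and 3471 CPM in lost wells (retaining against control, log2 fold change 1.62 ± 0.16, edgeR adjusted p = 0.00772). *Thbs1*, the gene of the matrix protein thrombospondin-1, was at 100.2 and 139 CPM, 1149 and 868 CPM, and 1198 and 933 CPM in the same order (3.08 ± 0.38, edgeR adjusted p = 0.0144). *Tnc*, the gene of tenascin-C, was at 15.8 and 26.9 CPM, 300.2 and 202 CPM, and 265 and 314 CPM (3.55 ± 0.42, edgeR adjusted p = 0.0125). In these 3 genes lost and retaining wells differed by log2 fold changes of 0.18, 0.08 and 0.23, and both classes lay above the controls on every plate. *Scn3a*, a sodium channel gene, was at 120.4 and 112 CPM, 626 and 974 CPM, and 776 and 887 CPM. *F2rl1*, a protease-activated receptor gene, *Mest*, an imprinted gene, and *Aqp1*, a water channel gene, rose as well. Lost wells had lower levels of *Aqp1* and *Mest* than retaining wells on both plates, not called, with 672 and 546 against 799.6 and 813 CPM of *Aqp1* and 458 and 380 against 545 and 587 CPM of *Mest*. Without control plate 3, plate 4 was the only control plate of the strain, and *Angpt2* was the only gene called higher. *Fn1*, *Thbs1*, *Tnc*, *Scn3a*, *F2rl1*, *Mest* and *Aqp1* were then not called.

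Among the genes that fell were 2 of the 7 collector and 1 of the 5 valve LEC markers, against 63 of all 18057 genes tested (0.349%). These lists were chosen with earlier results of these data known. In the paper, Tie1/-2-deleted LECs were underrepresented in the collecting vessel cluster. Sums over wells cannot tell fewer collector cells apart from lower levels per cell, and this was not tested. The collector list summed to 4459 and 4608 CPM in control and 3426 and 2100 CPM in retaining wells. The valve list summed to 1264 and 1972 CPM and to 1647 and 1168 CPM, so its groups overlapped. *Mmrn2* and *Ccdc3*, the 2 collector LEC markers, were at 342 and 339 CPM and at 287 and 275 CPM in control wells. They were at 27.5 and 20.2 CPM and at 11.8 and 14.6 CPM in retaining wells, and at 30.3 and 10.1 CPM and at 20.7 and 8.72 CPM in lost wells (retaining against control, log2 fold changes -3.83 ± 0.28 and -4.40 ± 0.34, edgeR adjusted p = 0.00179 for both). Both were called in 15 of 15 other analyses. *Mmrn2* reached 10 CPM in 185 of 300 and 226 of 299 control wells, in 5 of 99 and 5 of 73 retaining wells and in 8 of 186 and 8 of 203 lost wells. It was low in many of the control wells, with medians of 14.4 and 28.2 CPM. *Mmrn2* reached 1000 CPM in 47 and 38 control, 1 and 0 retaining and 0 and 0 lost wells. *Lrg1*, a secreted glycoprotein gene, was at 547 and 512 CPM in control, 37.8 and 45.1 CPM in retaining and 48.4 and 23.6 CPM in lost wells (-3.67 ± 0.28, edgeR adjusted p = 0.00179). *Prelp*, which encodes a matrix proteoglycan, was at 2355 and 2004 CPM, 699 and 358 CPM, and 811 and 511 CPM, and *Fgl2* at 2845 and 2556 CPM, 743 and 733 CPM, and 1186 and 988 CPM.

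Some of the genes named had their highest level in control, an intermediate level in retaining and their lowest level in lost wells. They were picked for this order after the values were seen, and other genes that fell went another way. *Prelp* and *Fgl2* had higher levels in lost than in retaining wells on both plates. For *Mmrn2*, *Ccdc3* and *Lrg1* the order of the classes differed between the plates. *Eln* fell between control and retaining wells by 2.83 on the log2 scale (SE 0.30, edgeR adjusted p = 0.00939), and the level in lost wells was lower than in retaining wells, a difference that DESeq2 called (adjusted p = 9.79e-09) and edgeR did not (adjusted p = 0.996). *Cldn11* was at 416 and 444 CPM in control, 137 and 129 CPM in retaining and 47.5 and 46.8 CPM in lost wells (retaining against control, -1.69 ± 0.26, edgeR adjusted p = 0.0397, not called without plate 3, 0.210). *Dll1*, a Notch ligand gene, was at 159.7 and 86.8 CPM, 18.4 and 18.1 CPM, and 5.51 and 9.06 CPM (retaining against control, -2.75 ± 0.36, edgeR adjusted p = 0.0181, not called without plate 3, 0.139). For *Cldn11* the highest well held 35.4% and 41.1% of the retaining and 19.6% and 27.2% of the lost counts of plates 1 and 2. *Cldn11* reached 1000 CPM in 4 of 99 and 3 of 73 retaining wells and in 3 of 186 and 1 of 203 lost wells. For *Dll1* 1 well held 76.2% of the retaining counts of plate 2, so that the order of lost and retaining wells there rests on this well. For *Tek* the retaining wells were below the controls by a log2 fold change of -1.59 ± 0.51 (95% interval -2.74 to -0.43), which was not called (edgeR adjusted p = 0.326). *Igfbp5* and *Prkar1b* fell as well but did not have this order. They were hardly read in either class of the deleted plates, and the order of the classes differed between the plates. *Igfbp5*, the gene of an IGF-binding protein, was at 488 and 519 CPM in control wells and at 0.366 and 4.18 CPM in retaining and 0.560 and 0.997 CPM in lost wells. *Prkar1b*, a regulatory subunit gene of protein kinase A, was at 242 and 188 CPM in control wells and had 2 and 0 counts in retaining and 0 and 4 counts in lost wells.

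**Figure D5:**
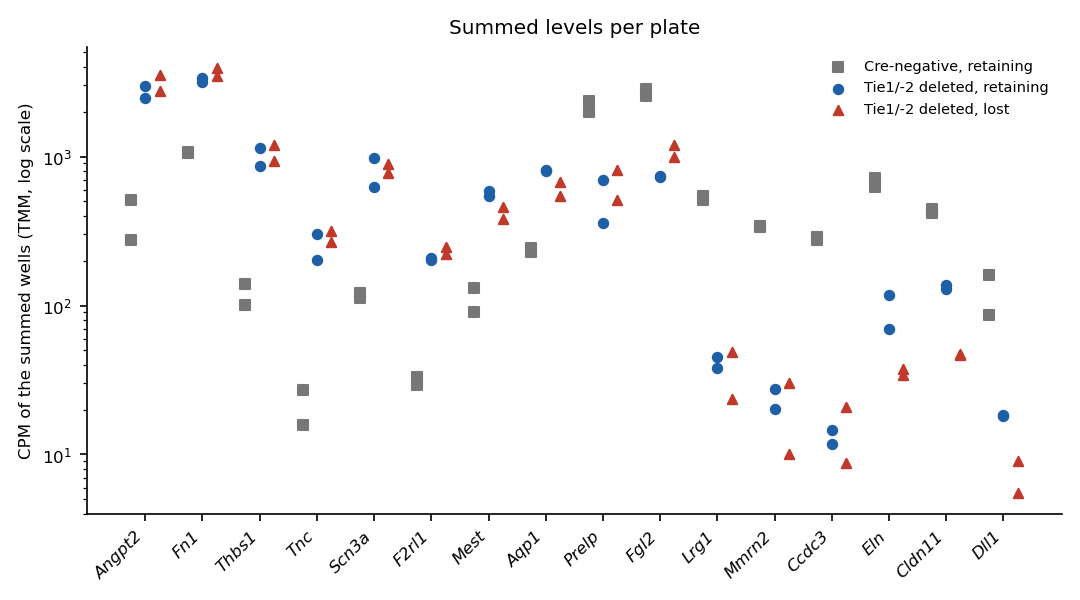
Summed levels (y axis, CPM with TMM factors, log scale) of 16 genes, 1 point per plate, in retaining wells of the Cre-negative plates (gray squares) and in retaining (blue circles) and lost (red triangles) wells of the Tie1/-2-deleted plates. For *Angpt2*, *Fn1*, *Thbs1*, *Tnc*, *Mmrn2* and *Ccdc3* the blue and red points lie together and apart from the gray ones. *Eln* and *Cldn11* have red points below the blue ones.

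Wells with at least 1000 CPM of *Lyve1* were also summed alone, as an addition made after the data were seen. This level was found in 95.2% and 96.1% of lost wells, 90.9% and 95.9% of retaining wells and 48.7% and 51.2% of control wells, so the limit kept nearly all deleted wells and does not select a matched cell type. In these wells, summed without TMM factors, *Angpt2* was at 3253 and 2843 CPM in lost, 2763 and 2529 CPM in retaining and 243 and 433 CPM in control wells. *Fn1* was at 3629 and 3637 CPM, 3066 and 3231 CPM, and 863 and 786 CPM, and *Thbs1* at 1150 and 995 CPM, 1162 and 949 CPM, and 121 and 75.8 CPM. *Eln* was at 32.7 and 38.9 CPM, 61.4 and 119 CPM, and 712 and 765 CPM. *Cldn11* was at 40.5 and 23.4 CPM in lost, 51.4 and 38.2 CPM in retaining and 125 and 129 CPM in control wells. *Tek* was at 8.84 and 21.2 CPM in lost, 28.1 and 109.9 CPM in retaining and 160.0 and 281 CPM in control wells.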

How the data were processed

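The authors deposited raw read counts per gene and well for 8 Smart-seq plates. Per the submitters' processing notes, TopHat2 2.1.1, SAMtools 0.1.18, featureCounts and GRCm38 (mm10) were used, and the column names of the tables mark duplicate removal. The counts are of reads and not of molecules. The tables named genes by symbol or Ensembl identifier. Joining them left 42558 genes, 782 of them matched through a former symbol, with 95.85% to 97.06% of each plate's counts, and 92 spike-ins were left out. The 2 droplet libraries were not used here.

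Wells are not replicates, so counts were summed per plate and *Tie1* class (at least 10 wells) and tested with edgeR 4.0.16 in R 4.3.3 (quasi-likelihood test after TMM scaling and filterByExpr, with p-values adjusted by Benjamini-Hochberg and a threshold of 0.05) over all plates with a term per plate. This fit left 2 residual degrees of freedom. Retaining wells were compared between genotypes without that term. Fold changes are log2 with SE. Alternatives were DESeq2 1.42.0, limma 3.58.1 (pseudocount 1), RLE factors, no filter, fewer plates, other wells and limits, and leaving out each plate. The script was tested on simulated data. Genes named are the 10 with the smallest p, those the study names, and those said to be chosen later. Of the 10, 1 is not reported here. Members and lists were chosen with earlier results of these data known. Gene positions are from RefSeq's annotation of GRCm38.p6.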

Additional observations from a re-analysis of the deposited data

How the results depend on the processing

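The count of 0 genes called between lost and retaining wells was also 0 without plate 1 or plate 2, and it became 175 with DESeq2, 2 without the replicate block (the plate term that pairs the classes of a plate) and 4 with wells thinned to 50000 counts. The 0 differences from the *Tie1* floxed plates became 101 with DESeq2. The class difference of the controls rests on plate 3 alone, so its spread between control plates was not measured. Counts of differences from the controls therefore show only how they depend on tool and setting. They are not results replicated over control plates. The 0 differences from the controls became 2525 with DESeq2, 927 with limma, 848 without the replicate block, 554 with thinned wells and 97 with no filter, and they could not be fitted with LEC-marked wells, stricter limits or without plate 3. The 78 calls in retaining wells became 827 with DESeq2, 724 with no filter, 262 with limma, 201 with thinned wells, 39 with stricter *Tie1* limits (50 and 2000 CPM) and 32 with the 4 plates of the strain, and ranged from 21 to 81 when 1 plate was left out. With stricter limits plate 2 had 9 retaining wells, too few to sum, so plate 1 alone stood for the retaining wells of the deleted mice. The cause of these changes was not tested. The share of wells with *Tek*, 6.45% and 28.1% of lost and 49.3% of retaining wells (plate 2), became 3.23%, 5.91% and 20.5% at 50 CPM, and 10.8% and 35.6% on plate 2 after thinning. The log2 fold change of lost against retaining wells ranged from -0.14 (without plate 2) to 0.05 (without plate 1) for *Prox1* and likewise from -0.74 to 0.29 for *Gata2*. With stricter limits it turned to 0.45 for *Nrp2*, a value that rests on plate 1 alone. Of the other values of named genes in that comparison, 318 kept their direction and side of the threshold and 19 passed it. In the retaining wells 512 did so, 3 passed it and 220 no longer did.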
